A study of Mus musculus with 4 samples.

Results

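The expression of 9 myelin genes was examined in single-nucleus RNA-seq of mouse brain: Mbp, Mog, Mag, Mobp, Cnp, Mal, Opalin, Cldn11 and Ermn. They were followed in oligodendrocyte nuclei, defined by at least 3 UMIs (unique molecular identifiers, each marking 1 captured transcript) of Prr5l, St18 and Aspa together, and in nuclei of other classes. The rule uses none of the 9 genes, but they were chosen with earlier results of these same libraries in view, so their levels are given as descriptions. Of 74107 nuclei kept after removal of called doublets, 11472 met the rule, and all 9 genes were among the 31053 genes measured.

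The study asked how brain cells respond to vascular endothelial growth factor C (VEGF-C) delivered by an adeno-associated virus (AAV) into the cerebrospinal fluid. Male C57BL/6J mice received AAV9 at 4 weeks of age through the cisterna magna and were sampled at 8 weeks. AAV-VEGF-C encoded full-length mouse VEGF-C, and AAV-CTRL encoded a soluble piece of mouse VEGFR3 (Ig domains 4 to 7 joined to an Ig tail) that does not bind VEGF-C, so the control mice also carried a virus and a secreted protein. Tissue of 5 mice was pooled for each AAV group, the same mice gave both regions, and each AAV group gave 1 library labelled cortex and 1 labelled striatum, 4 libraries in all. Where 4 values stand together, the cortex pair comes first and AAV-CTRL leads each pair. With 1 library a group no test was run. Each difference describes a pair of libraries. Each 95% interval covers counting error alone and says nothing of the spread between mice or between nuclei.

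The libraries held 17168 to 23724 nuclei and 63165470 to 78332657 UMIs, and any pair of them shared 76 to 118 barcodes. The region labels were at odds with several region genes. Over all kept nuclei, Ppp1r1b, a gene of striatal projection neurons, was at 62.8, 75.5, 18.8 and 18.5 CPM (UMIs of a gene per 1000000 UMIs), and Rgs9 at 104, 126, 48.9 and 47.3 CPM, both higher in the libraries labelled cortex. Slc17a7, the vesicular glutamate transporter of cortical excitatory neurons, was at 419, 459, 58.5 and 42.0 CPM, also higher in the libraries labelled cortex. Region names below are therefore those of the labels. Vegfc itself, as RNA over all kept nuclei, was at 12.0 to 13.0 CPM in all 4 libraries and did not separate the AAV labels. The paper reports more VEGF-C protein in cerebrospinal fluid and brain after AAV-VEGF-C, and more Vegfc in smooth muscle cells.

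Myelin is the compacted membrane that oligodendrocytes wrap around axons. Mbp (myelin basic protein) and Mobp encode cytoplasmic proteins that hold the inner membrane faces together, whereas Cnp encodes an enzyme of the non-compact, cytoplasm-filled channels. Mog and Mag are immunoglobulin-type surface proteins, on the outermost myelin layer and on the innermost layer facing the axon. Cldn11 forms the tight junctions of the sheath, Mal is a membrane proteolipid of vesicle sorting, Opalin is a sialylated membrane glycoprotein and Ermn binds actin late in maturation. The factors Sox10 and Myrf are known to switch on myelin genes, and Mbp messenger RNA is known to travel out of the cell body into the processes.

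The bases before their start sites were searched for the letters of both factors. The windows were the 250 bases before the start in RefSeq (GRCm38.p6), and those of 8 of the 9 genes were used, with 3 starts for Mag. The Sox letters were ACAAAG or ACAATG and the Myrf letters CTGGNAC, on either strand. Sox letters were found in 5 of the 8 genes (Mag, Mobp, Cnp, Opalin and Ermn) and Myrf letters in 3 (Mog, Mag and Cnp). Of all 32851 windows of this length, 25.2% held Sox letters and 16.1% Myrf letters. These shares count windows, whereas a gene was counted if any of its windows matched. Counted by window, Sox letters were in 6 of the 10 windows of the 8 genes, and some Mag windows overlap. The stretches from 250 to 51 bases before the start are shown for Cnp, the gene with the largest ratio between AAV labels, for Mobp, whose ratio was near 0, and for Opalin, the member lowest in differentiating nuclei relative to the oligodendrocyte level. They lie at chr11:100574689-100574888 (plus strand), chr9:120149492-120149691 (plus strand) and chr19:41077164-41077363 (minus strand), are written 5′ to 3′, and carry the motif letters in capitals.
Cnp: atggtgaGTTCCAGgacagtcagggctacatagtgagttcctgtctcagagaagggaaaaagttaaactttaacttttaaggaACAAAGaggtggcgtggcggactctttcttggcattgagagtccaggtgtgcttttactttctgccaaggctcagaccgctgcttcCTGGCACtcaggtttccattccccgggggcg
Mobp: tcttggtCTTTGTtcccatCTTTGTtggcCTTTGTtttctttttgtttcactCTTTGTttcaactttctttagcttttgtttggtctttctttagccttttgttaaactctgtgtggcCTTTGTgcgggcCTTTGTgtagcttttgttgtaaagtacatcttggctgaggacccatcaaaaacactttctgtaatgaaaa
Opalin: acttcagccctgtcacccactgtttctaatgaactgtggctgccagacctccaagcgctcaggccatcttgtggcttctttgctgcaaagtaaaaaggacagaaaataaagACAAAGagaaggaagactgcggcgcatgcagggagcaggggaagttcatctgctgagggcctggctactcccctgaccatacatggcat
The Mobp window held 6 matches to the Sox letters, none overlapping another, and 0.0213% of all windows (7 of 32851) held 5 or more. The Cnp window held 1 Sox and 2 Myrf matches, and the Opalin window 1 Sox match. A match describes letters only and is not evidence that a factor binds there.

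Oligodendrocyte nuclei numbered 1800, 2096, 4055 and 3521, or 10.98% (exact binomial interval 10.5 to 11.5), 10.9% (10.5 to 11.4), 18.6% (18.1 to 19.1) and 21.1% (20.5 to 21.7) of the kept nuclei. The libraries labelled striatum thus held the larger shares, and the intervals of the cortex libraries overlapped. Their median depth was 1761.5, 1759, 1813 and 2153 UMIs, so the striatum AAV-VEGF-C nuclei were the deepest. The 9 members, no part of the rule, summed to 6366 to 7695 CPM in these nuclei against 256 to 520.3 CPM in excitatory neurons. Genes of other cell types were also present. Snap25, a synaptic gene of neurons, was at 1017, 1014, 771 and 687 CPM in oligodendrocyte nuclei against 984 to 1305 CPM in excitatory neurons, and 27.9%, 24.7%, 21.0% and 19.6% of oligodendrocyte nuclei also met the marker rule of another class.

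The summed level of the 9 genes in oligodendrocyte nuclei was 6366, 6985, 6588 and 7695 CPM, higher under the AAV-VEGF-C label in both regions. Cnp showed the clearest difference. It was at 347 (exact Poisson interval 330 to 365), 552 (532 to 572), 387 (375 to 400) and 605 (589 to 620) CPM, so that both AAV-VEGF-C libraries lay above both AAV-CTRL libraries. Among the surface proteins, Mog was at 632, 691, 667 and 773 CPM and Mag at 882, 988, 931 and 1103 CPM. Both genes were lowest in cortex AAV-CTRL and highest in striatum AAV-VEGF-C. Mal was at 978, 1165, 938 and 1188 CPM and Opalin at 241, 302, 229 and 293 CPM, again with both AAV-VEGF-C libraries on top and with little distance between the regions. Cldn11, at 556, 648, 641 and 690 CPM, was low in cortex AAV-CTRL alone, and Ermn, at 107, 118, 121 and 162 CPM, was high in striatum AAV-VEGF-C alone. The genes for the cytoplasmic compaction proteins were the flattest, with Mbp at 1859, 1763, 1855 and 2017 CPM and Mobp at 763, 759, 820 and 865 CPM.

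**Figure D1:**
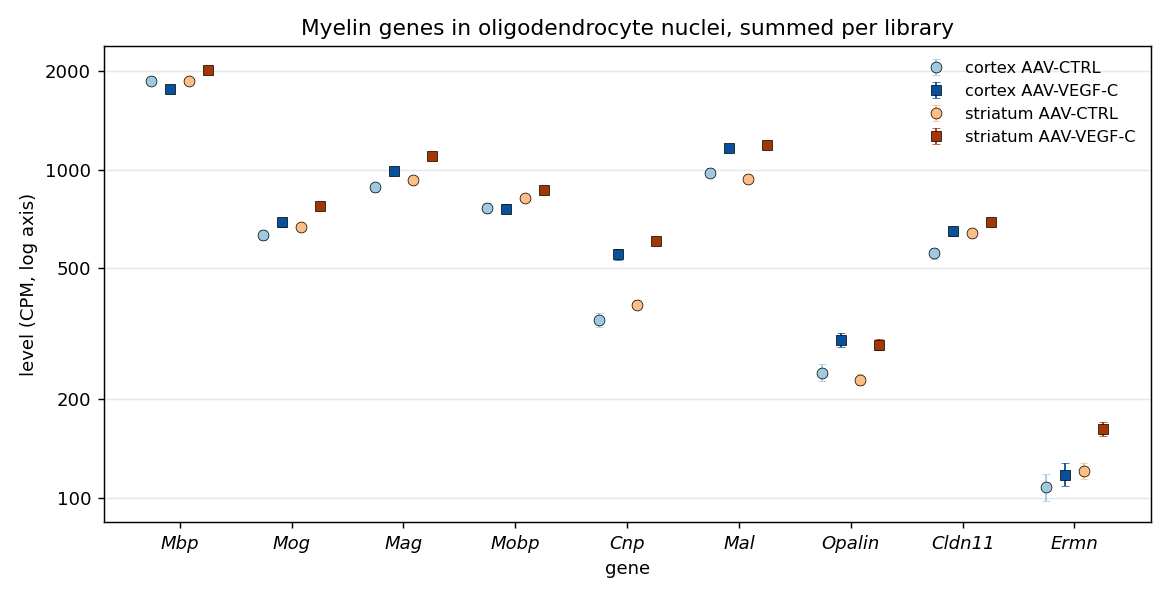
Level of each myelin gene in oligodendrocyte nuclei (vertical axis, CPM on a log scale), with 1 point for each of the 4 libraries and bars for the exact 95% Poisson interval. The dark points (AAV-VEGF-C) lie clear of the light points (AAV-CTRL) for Cnp, at 552 and 605 against 347 and 387 CPM, whereas the 4 points of Mbp lie between 1763 and 2017 CPM.

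As log2 ratios of AAV-VEGF-C over AAV-CTRL, Cnp was 0.67 (interval 0.58 to 0.76) in the cortex libraries and 0.64 (0.58 to 0.70) in the striatum libraries, or 1.59-fold and 1.56-fold higher. Opalin followed with 0.33 (0.21 to 0.44) and 0.35 (0.27 to 0.43), and Mal with 0.25 (0.20 to 0.31) and 0.34 (0.30 to 0.38). For these 3 genes the intervals of both regions lay above 0 and overlapped each other. Mag was at 0.16 (0.10 to 0.22) and 0.24 (0.20 to 0.29), Mog at 0.13 (0.06 to 0.20) and 0.21 (0.17 to 0.26), and Cldn11 at 0.22 (0.15 to 0.30) and 0.11 (0.06 to 0.16). Those intervals too lay above 0 in both regions. Ermn was at 0.13 (−0.05 to 0.31) in cortex, an interval that spans 0, and at 0.42 (0.32 to 0.53) in striatum. Mobp was at −0.01 (−0.07 to 0.06) and 0.08 (0.03 to 0.12). Mbp alone had intervals on opposite sides of 0, at −0.08 (−0.12 to −0.03) and 0.12 (0.09 to 0.15). These intervals leave out the spread between nuclei. In oligodendrocyte nuclei of cortex AAV-CTRL, the variance of unscaled Mbp UMIs was 5.46 times their mean.

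The median ratio of the 9 genes was 0.16 in cortex and 0.24 in striatum on the log2 scale, against −0.01 and 0.01 over all genes with at least 50 UMIs in the pair. The middle 50% of all genes lay from −0.17 to 0.13 and from −0.14 to 0.16. At least 25% higher were 2 of 9 members in cortex (Cnp and Opalin), against 7.63% of 12435 genes, and 4 of 9 in striatum (Cnp, Mal, Opalin and Ermn), against 10.6% of 14371 genes. At least 20% lower, the same size on the log scale, were 0 of 9 in either region, against 11.6% and 8.74% of genes. Cnp alone was past 1.5-fold higher, a size that 1.43% and 2.4% of genes reached, and 0 of 9 were past 1.5-fold lower, against 4.17% and 2.44%. These shares include genes with as few as 50 UMIs in the pair, whose counting error is wider than that of the members. The member with the fewest UMIs, Ermn, had 462 and 604 in the cortex libraries. The shares are therefore not a like comparison for the members. The rule genes themselves were at −0.16 and −0.13 (Prr5l), −0.10 and −0.07 (St18) and −0.24 and −0.03 (Aspa). The nuclei were chosen by the UMIs of these 3 genes, so their ratios give no comparison for Cnp.

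**Figure D2:**
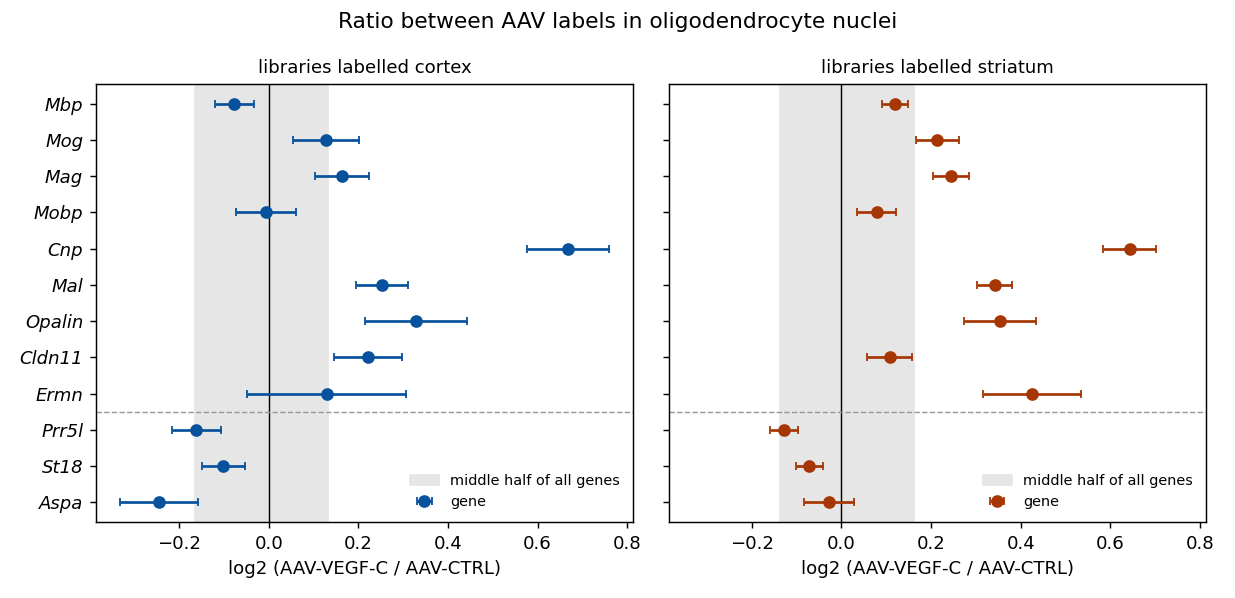
Log2 ratio of AAV-VEGF-C over AAV-CTRL in oligodendrocyte nuclei (horizontal axis), with 95% counting intervals. The 9 members stand above the dashed line. Under it are the 3 genes of the rule, by which the nuclei were chosen, so their ratios give no comparison for the members. The grey band holds the middle 50% of all genes, from −0.17 to 0.13 in the cortex libraries and from −0.14 to 0.16 in the striatum libraries, and Cnp lies farthest to the right in both at 0.67 and 0.64.

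Several properties of the libraries moved with the AAV label. In the striatum pair, ratios of all genes were related to gene span. Their median was 0.13 for genes under 10 kb, 0.05 from 10 to 30 kb, −0.03 from 30 to 100 kb and −0.12 above 100 kb. The cortex pair gave 0.04, −0.00, −0.04 and −0.04. Ermn lies in the shortest bin, Mobp in the bin from 30 to 100 kb, Mbp in the longest, and the other 6 members from 10 to 30 kb. Of the genes from 10 to 30 kb with at least 50 UMIs in the pair, 1.27% and 2.26% were past 1.5-fold higher. The mitochondrial share of oligodendrocyte UMIs was 1.04%, 1.23%, 1.09% and 1.35%, higher in both AAV-VEGF-C libraries. The part of span, depth and mitochondrial share in the ratios was not tested. Cnp overlaps Dnajc7 on the opposite strand of chromosome 11, and Dnajc7 was at −0.00 and 0.14 in the same contrasts.

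The share of nuclei with a UMI gave the same order for Cnp when every nucleus was thinned to 1000 UMIs. In oligodendrocyte nuclei it was 34.0%, 45.8%, 37.5% and 48.9% (52.5%, 66.2%, 58.6% and 74.7% before thinning, with 28 to 100 shallower nuclei left out per library). Mbp was found in 81.6%, 78.7%, 82.3% and 82.3% of thinned oligodendrocyte nuclei, against 10.7%, 9.96%, 15.2% and 10.96% of excitatory neurons. The Mbp locus is also known to give longer golli transcripts in neurons, which counts per gene cannot tell apart from those of myelin. Mog was found in 50.9%, 54.0%, 53.4% and 55.9% of thinned oligodendrocyte nuclei, against 4.20%, 2.62%, 5.86% and 9.66% of microglia, which should lack it. Median depths before thinning were 1759 to 2153 UMIs in oligodendrocyte nuclei, 4355 to 5046 UMIs in excitatory neurons and 1454 to 1789 UMIs in microglia.

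Between regions the members lay close to all genes. The median log2 ratio of striatum over cortex was 0.08 in the AAV-CTRL libraries and 0.16 in the AAV-VEGF-C libraries, against 0.05 and 0.10 over all genes. Of the 9 genes, 0 were at least 25% higher in striatum under AAV-CTRL, against 20.8% of genes, and 1 under AAV-VEGF-C, namely Ermn at 0.46 (0.33 to 0.60), against 25.2% of genes. At least 20% lower were 0 of 9 in both, against 17.1% and 14.4% of genes. These shares too include genes with far fewer UMIs than the members and so are not a like comparison. Cldn11 was at 0.21 (0.14 to 0.27) and 0.09 (0.03 to 0.15) and Cnp at 0.16 (0.07 to 0.24) and 0.13 (0.07 to 0.20), both above 0 in both contrasts. Opalin was at −0.07 (−0.18 to 0.04) and −0.05 (−0.14 to 0.04), with intervals that span 0. Restricted to nuclei with at least 10 UMIs of the rule genes, the medians of the 9 genes turned to −0.09 and −0.11, so the direction between regions depended on the threshold.

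The threshold was also visible within each library. Nuclei at 2 UMIs of the rule genes, just outside it, had a summed level of the 9 genes of 1476, 1845, 1048 and 1213 CPM. Those at 3 UMIs, just inside, had 2879, 3982, 2978 and 2494 CPM, and those at 10 or more had 8581, 9736, 7855 and 8938 CPM. The median depth was 2316.5, 2213, 2456 and 3144 UMIs in the group at 2 UMIs and 1571.5, 1612, 1567.5 and 2090 UMIs in the group at 3. The nuclei just outside the rule were thus deeper than those just inside. At 10 or more the median depth was 2046, 2126, 2064 and 2381 UMIs, and the part of depth was not tested. The nuclei at 3 UMIs were 218, 296, 300 and 222 in number.

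Myelin gene UMIs were also found in nuclei with 0 UMIs of the rule genes that met the markers of another class. Each such class was set by 3 markers with at least 3 UMIs in sum. The median level of the 9 genes in neuronal nuclei was 2.97%, 3.07%, 6.48% and 6.41% of their level in oligodendrocyte nuclei. Astrocyte nuclei were at 5.47%, 5.53%, 11.8% and 12.4%, microglia at 8.06%, 8.57%, 13.7% and 13.9% and endothelial nuclei at 8.87%, 7.48%, 12.9% and 13.7%. In every class listed the libraries labelled striatum, which held the larger share of oligodendrocyte nuclei, had the higher percentages, and the AAV labels differed little.

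**Figure D3:**
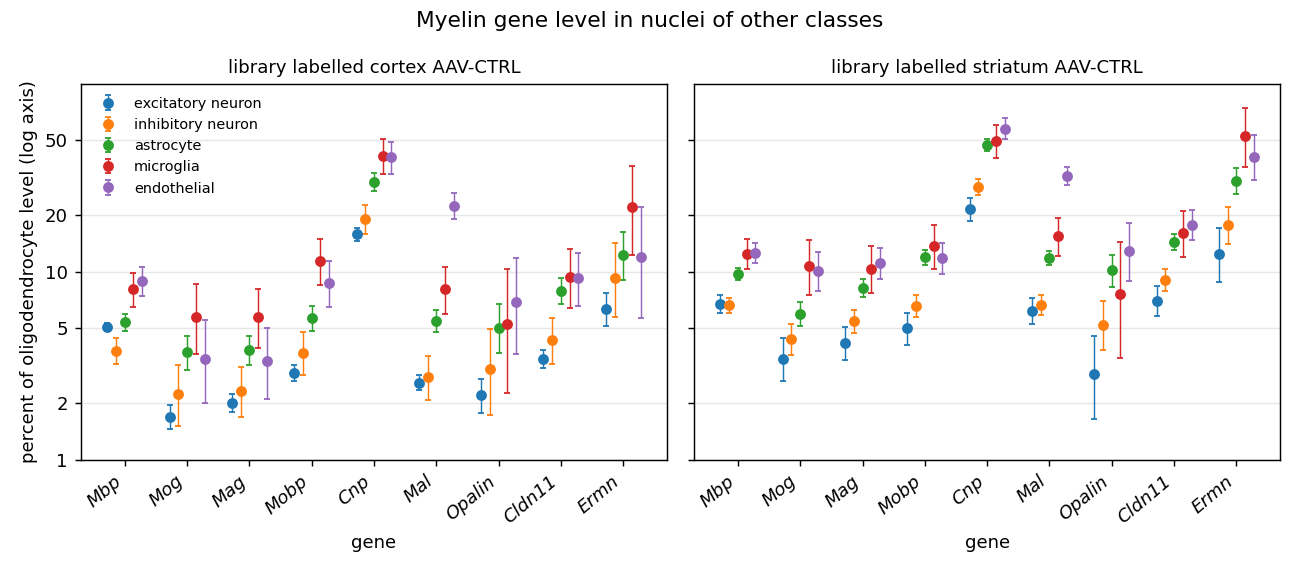
Level of each myelin gene in nuclei of 5 other classes as a percent of its level in oligodendrocyte nuclei (vertical axis, log scale) in the cortex AAV-CTRL and striatum AAV-CTRL libraries, with 95% counting intervals. Cnp is highest among the 9 genes in neurons, at 16.1% and 25.5% over both neuronal classes, and Mal stands out in endothelial nuclei at 22.4% and 32.4%.

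Counted per nucleus, the classes were more alike than these percentages. Mog in the cortex AAV-CTRL library was at 0.056 UMIs per excitatory neuron, 0.055 per inhibitory neuron, 0.058 per astrocyte, 0.055 per microglial nucleus and 0.039 per endothelial nucleus, against 1.51 per oligodendrocyte nucleus. In striatum AAV-VEGF-C the same classes were at 0.156, 0.170, 0.152, 0.155 and 0.159, against 2.14. Mog therefore varied little between classes of unlike depth, from 1739 UMIs in endothelial nuclei to 4522 UMIs in excitatory neurons of that library. RNA freed from broken cells is known to enter droplets and to give every class a like low count of a gene. The part of such RNA in these values was not tested.

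The members did not spread in equal parts. Cnp made up 5.46%, 7.90%, 5.88% and 7.86% of the UMIs of the 9 genes in oligodendrocyte nuclei but 18.3% to 27.5% in excitatory, inhibitory, astrocyte, microglial and endothelial nuclei. Its level in neuronal nuclei was 16.1%, 11.2%, 25.5% and 22.2% of that in oligodendrocyte nuclei, whereas Mog was at 1.75%, 1.77%, 4.001% and 4.91% there. Oligodendrocyte nuclei held 27.3%, 33.5%, 35.2% and 41.7% of all Cnp UMIs of a library, against 73.6%, 72.4%, 76.2% and 75.4% of all Mog UMIs. Ermn, the shortest gene, was at 6.61%, 7.40%, 15.6% and 13.96% in neuronal nuclei. Over the 9 genes, the Spearman rank correlation between span and this percentage was 0.17, 0.27, 0.07 and −0.03. Most of the 9 genes lie between 10 and 30 kb, and the part of span in these percentages was not tested.

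Mbp per nucleus was higher in excitatory neurons than in astrocytes, by a small distance in striatum AAV-VEGF-C. It was at 0.491, 0.493, 0.581 and 0.540 UMIs per excitatory neuron against 0.248, 0.252, 0.373 and 0.505 per astrocyte. As a share of the oligodendrocyte level, however, excitatory neurons were at 5.06%, 5.27%, 6.74% and 5.63% and astrocytes at 5.38%, 5.81%, 9.70% and 10.7%, and excitatory neurons were the deeper class. Mal, which is also known from cells outside the nervous system, was highest outside the oligodendrocyte lineage in endothelial nuclei, at 0.391, 0.399, 0.514 and 0.690 UMIs per nucleus against 0.0990 to 0.350 in the other 4 classes. Mal took 30.3%, 33.2%, 24.9% and 24.9% of the UMIs of the 9 genes in endothelial nuclei but 15.4%, 16.7%, 14.2% and 15.4% in oligodendrocyte nuclei. Cldn11 in fibroblast nuclei, a class of 43, 27, 168 and 46 nuclei, was at 48.2%, 16.8%, 27.1% and 20.5% of its oligodendrocyte level.

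**Figure D4:**
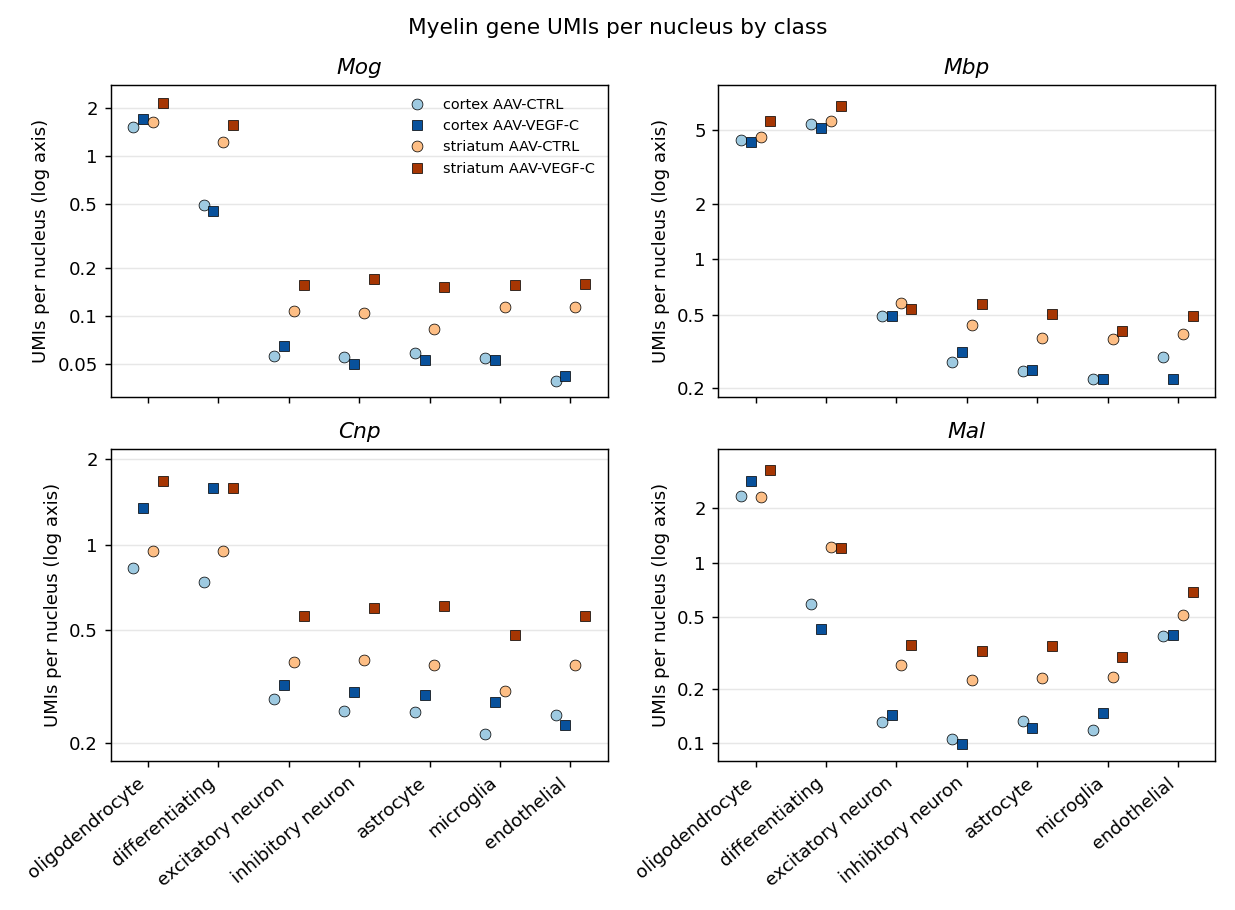
UMIs per nucleus (vertical axes, log scale) of Mog, Mbp, Cnp and Mal in oligodendrocyte, differentiating, neuronal, astrocyte, microglial and endothelial nuclei, with 1 point for each library. Mog is near level across the 5 classes outside the lineage, at 0.152 to 0.170 in striatum AAV-VEGF-C, whereas Mal is higher in endothelial nuclei than in the other 4 classes in each library, at 0.391 to 0.690.

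The AAV difference of Cnp was also seen outside oligodendrocyte nuclei in the striatum pair. Its log2 ratio was 0.51 (0.24 to 0.78) in excitatory neurons, 0.40 (0.21 to 0.58) in inhibitory neurons, 0.51 (0.38 to 0.65) in astrocytes, 0.48 (0.11 to 0.85) in microglia and 0.40 (0.14 to 0.67) in endothelial nuclei. All 5 intervals lay above 0. In the cortex pair the same classes were at 0.14 (0.02 to 0.25), 0.14 (−0.17 to 0.45), 0.21 (0.03 to 0.40), 0.38 (−0.01 to 0.77) and −0.05 (−0.44 to 0.34), below the 0.67 of oligodendrocyte nuclei. Over the 9 genes, the class medians ran from −0.05 to 0.14 in cortex and from 0.10 to 0.34 in striatum.

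Differentiating oligodendrocyte nuclei were set apart by at least 3 UMIs of Bmp4, Enpp6 and Gpr17 together, genes of newly formed oligodendrocytes, and numbered 110, 126, 242 and 248. The class overlaps the oligodendrocyte rule in 52, 55, 149 and 165 nuclei. Relative to oligodendrocyte nuclei the members formed a graded order. Mbp was at 83.1%, 66.2%, 94.0% and 70.1%, Cldn11 at 72.5%, 58.8%, 69.1% and 53.7% and Cnp at 61.0%, 65.7%, 76.8% and 55.0%, the highest members in each library. Mag was at 39.4%, 48.8%, 62.0% and 47.8%, Mobp at 29.8%, 23.2%, 65.7% and 48.7%, Ermn at 31.6%, 15.4%, 62.2% and 48.6% and Mog at 22.3%, 15.0%, 57.6% and 42.0%. These 4 genes were higher in the striatum libraries than in cortex AAV-CTRL, and the cortex libraries were low for Mog and Mobp. Mal was at 17.4%, 8.40%, 40.5% and 21.3%. Opalin was the lowest member in all 4 libraries at 14.1% (7.50 to 24.3), 4.80% (2.07 to 9.49), 21.5% (15.1 to 29.6) and 13.0% (9.47 to 17.5), from 13, 8, 38 and 45 UMIs. The percentage was lower in the AAV-VEGF-C library of each region for Mbp, Cldn11, Mobp, Ermn, Mog, Mal and Opalin, and this difference was not tested.

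**Figure D5:**
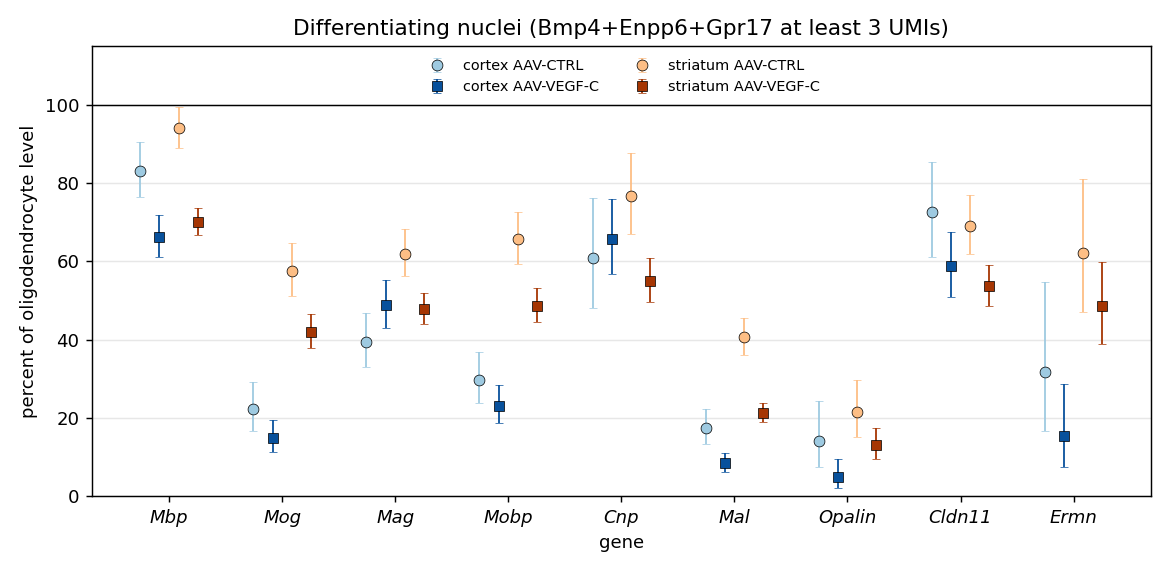
Level of each myelin gene in differentiating nuclei as a percent of its level in oligodendrocyte nuclei (vertical axis), with 1 point for each library, 95% counting intervals and a line at 100%. Mbp, Cldn11 and Cnp sit between 53.7% and 94.0%, and Opalin lies lowest at 4.80% to 21.5%.

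Precursor nuclei, set by at least 3 UMIs of Lhfpl3, Pdgfra and Cspg4 together, had a median of the 9 genes at 4.81%, 4.98%, 5.53% and 6.57% of the oligodendrocyte level. Rbfox3, a gene of neurons, was at 389, 329, 314 and 341 CPM in this class. Inhibitory neurons had it at 505, 503, 330 and 305 CPM. In the striatum libraries both classes were thus alike in Rbfox3, and the name precursor rests on the markers alone. A stricter rule, at least 3 UMIs of Pdgfra and Cspg4 alone, was chosen after the data were seen. It kept 148 of 411, 190 of 472, 198 of 1513 and 194 of 1141 precursor nuclei. The nuclei it kept had Rbfox3 at 78.5 to 234 CPM and a median of the 9 genes at 5.14%, 4.39%, 8.57% and 10.1%. In these nuclei Cnp was above the median, at 30.8%, 18.4%, 39.3% and 38.6%.

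Other genes of the lineage were compared through 6 lists. Of all genes with at least 50 UMIs in the pair, 7.63% were at least 25% higher and 11.6% at least 20% lower in cortex. In striatum these shares were 10.6% and 8.74%, and the counts below are to be read beside them. The shares include genes near 50 UMIs, whose counting error is wider than that of genes with many UMIs. Of 23 further myelin and paranode genes, 1 was at least 25% higher and 0 at least 20% lower in the cortex pair, with a median log2 ratio of 0.00, and 2 were higher and 0 lower in the striatum pair, with a median of 0.18. The gene higher in both was Cryab, a small heat shock protein, at 0.50 (0.32 to 0.68) and 0.57 (0.46 to 0.69). Of 20 genes of myelin lipid synthesis, 0 passed those sizes in either direction, with medians of 0.01 and 0.09. Of 13 oligodendrocyte transcription factors, 3 were higher and 2 lower in cortex and 4 higher and 0 lower in striatum, with medians of 0.03 and 0.21. Among them Olig1, a factor that specifies the lineage, was at 0.44 (0.26 to 0.61) in cortex and 0.32 (0.21 to 0.42) in striatum. Sox10 was at 0.09 (−0.06 to 0.23) in cortex and 0.56 (0.45 to 0.66) in striatum. Myrf, the other factor whose letters were searched, was at 0.03 (−0.17 to 0.23) in cortex and 0.14 (0.02 to 0.26) in striatum.

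Of 14 long oligodendrocyte transcripts, 0 passed them, with medians of −0.11 and −0.07. All genes above 100 kb had medians of −0.04 in cortex and −0.12 in striatum. Elmo1 was at −0.20 (−0.29 to −0.11) in cortex and −0.18 (−0.24 to −0.13) in striatum. Of the 14 precursor and differentiation genes, 12 had enough UMIs in cortex, of which 0 were higher and 3 lower, and in striatum 2 of 14 were higher and 0 lower. Their medians were −0.20 and 0.16. Itpr2, a calcium channel gene of differentiating cells, was at −0.53 (−0.76 to −0.30) in cortex and, on the other side of 0, at 0.28 (0.12 to 0.44) in striatum. C1ql1 was at 0.62 (0.27 to 0.98) in striatum and had too few UMIs in cortex. Rras2 was at −0.37 (−0.65 to −0.09) in cortex and −0.15 (−0.39 to 0.09) in striatum. Of 14 genes of mature oligodendrocyte subtypes, 5 were lower and 0 higher in cortex, with a median of −0.19, and 3 of 13 were higher and 0 lower in striatum, with a median of 0.10. H2-D1, a class I histocompatibility gene, was at −0.45 (−0.82 to −0.07) in cortex and 0.14 (−0.09 to 0.38) in striatum. Ptgds, a prostaglandin D synthase, was at 1982 CPM in striatum AAV-CTRL and 3827 CPM in striatum AAV-VEGF-C, a log2 ratio of 0.95 (0.92 to 0.97), and it was at −0.28 (−0.33 to −0.23) in the cortex pair.

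The genes whose levels were most like those of the members were found by Pearson's r between their log2(CPM + 1) and the members' mean over 32 points, 8 classes in each of 4 libraries. The points share libraries, depths and marker rules, so r is a description. Among the highest were Ppp1r14a (r = 0.97), Tspan2 (0.97), Plekhh1 (0.96) and Trf (0.96). Ppp1r14a was at 92.6 to 132 CPM in oligodendrocyte nuclei and 5.58 to 12.8 CPM in excitatory neurons, and Tspan2, a tetraspanin of myelin, at 380 to 476 and 11.4 to 53.7 CPM. In neuronal nuclei the 23 further myelin genes had a median of 7.49%, 6.25%, 10.99% and 11.9% of their oligodendrocyte level, above the 2.97%, 3.07%, 6.48% and 6.41% of the 9 members. This holds over the 22, 23, 23 and 23 genes with at least 100 UMIs.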

How the data were processed

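Nuclei of frozen, pooled tissue were profiled with droplet-based 3′ chemistry. The deposited values are UMI counts per gene and nucleus, which the authors made with Cell Ranger (5.0.1 per the file headers, 5.1.1 in the submitters' processing notes) on mm10. The annotation and the counting of intronic reads are not given in the sources used here. Barcodes called doublets by Scrublet (scanpy 1.11.5, expected rate 8%) were left out, 4.31% to 7.95% of a library. UMIs were summed per class and library and scaled to 1000000 (CPM). Exact Poisson, Clopper-Pearson and conditional binomial intervals at 95% were computed with scipy 1.17.1 and cover counting error only. No p-value was computed. The calculation of the ratios was tested on simulated Poisson counts. Those counts lack the spread between nuclei, so the test says nothing of how the intervals serve under such spread.

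Other classes needed at least 3 UMIs of 3 markers, under 3 of every other class and 0 of the rule genes. Excitatory neurons were set by Slc17a7, Slc17a6 and Sv2b, inhibitory neurons by Gad1, Gad2 and Slc32a1, astrocytes by Slc1a3, Slc4a4 and Aqp4, microglia by Csf1r, Cx3cr1 and Inpp5d, and endothelial nuclei by Flt1, Cldn5 and Mecom. Mural nuclei were set by Atp13a5, Abcc9 and Myh11, and fibroblasts by Dcn, Col1a1 and Slc6a13. Neuronal nuclei are both neuronal classes together.

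The members and lists were chosen with earlier results of these data known. Genes named beside the members were the 2 highest and 2 lowest of the lists with at least 100 UMIs in both libraries of an AAV pair, and the 5 most alike genes, of which 4 are given because 1 item is not reported here. Sox10, Myrf and the second value of a listed gene were chosen after their values were seen. Alternatives changed the rule threshold, doublets, class overlap, scaling, depth and UMI minimum. The precursor rule with Pdgfra and Cspg4 and the threshold of 10 UMIs were chosen after seeing the data.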

Additional observations from a re-analysis of the deposited data

Results flagged for a closer look

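Mbp in oligodendrocyte nuclei had log2 ratios of AAV-VEGF-C over AAV-CTRL on opposite sides of 0 in the libraries of the 2 regions, at −0.0769 in cortex (1859 and 1763 CPM) and at 0.120 in striatum (1855 and 2017 CPM). The difference between the regions was not tested, since each group had 1 library. The counting intervals of both ratios leave out the spread between nuclei.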

How the results depend on the processing

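No paired analysis was run, because each group had 1 library and so no 2 groups shared more than 1 replicate number. Both regions of an AAV group came from the same mice, so like AAV ratios in both regions are not a replication. An additive fit over the 4 libraries, with 1 residual degree of freedom, was not run. No replicate could be left out. Of 324 ratios of single genes under alternatives, 241 moved by less than the counting interval, 72 moved more and 11 turned direction, counting a turn only where the interval of the reported ratio lay away from 0. All 11 were between regions. Mobp between AAV labels in cortex, from −0.06 to 0.08, had a reported interval that spans 0 and also crossed 0 under some settings. The same held between regions for Mbp and Opalin under AAV-CTRL and for Mal under AAV-VEGF-C. The ratio of Cnp between AAV labels ranged over all settings from 0.63 to 0.82 in cortex and from 0.57 to 0.68 in striatum. The cause of the moves below was not tested.

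With at least 2 UMIs of the rule genes, oligodendrocyte shares were 13.1%, 12.9%, 21.7% and 24.1%, and the neuronal level of the 9 genes was 3.64%, 3.64%, 7.74% and 7.68% of that in oligodendrocyte nuclei. With at least 5 UMIs, shares were 8.35%, 8.10%, 15.8% and 18.3%, the neuronal level in cortex AAV-CTRL 2.49%, the median ratio between AAV labels in cortex 0.10 and that of striatum over cortex under AAV-CTRL 0.0056. With doublets kept, shares were 11.7%, 11.8%, 20.4% and 22.3% and neuronal levels 3.31%, 3.55%, 7.39% and 7.07%. Without nuclei that met another class rule, shares were 7.92%, 8.24%, 14.7% and 16.9%, neuronal levels 2.11%, 2.16%, 4.76% and 5.03%, median AAV ratios 0.23 in cortex and 0.18 in striatum, and the region median under AAV-VEGF-C 0.018. Thinned to 1000 UMIs, the AAV median in striatum was 0.17 (0.20 in the random draw behind the thinned shares of nuclei), the region median under AAV-VEGF-C 0.088, and neuronal levels 3.39% in cortex AAV-CTRL and 8.10% in striatum AAV-VEGF-C. Scaled by the median of ratios, the region median under AAV-VEGF-C was 0.056. With 0 to 2 rule UMIs allowed in other classes, the neuronal level in striatum AAV-VEGF-C was 7.07%, and with class markers at 6 UMIs the levels were 2.17%, 2.42%, 4.93% and 5.72%.

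With at least 10 UMIs of the rule genes, chosen after seeing the data, the AAV median in cortex was 0.24 and the region medians turned to −0.085 under AAV-CTRL and −0.11 under AAV-VEGF-C. Single genes with intervals away from 0 that turned there were Mog (−0.028), Mag (−0.085) and Mobp (−0.15) under AAV-CTRL, and Mbp (−0.10), Mog (−0.12), Mag (−0.079), Mobp (−0.21), Cnp (−0.11) and Cldn11 (−0.041) under AAV-VEGF-C. Cldn11 under AAV-VEGF-C also turned to −0.056 without nuclei of another class rule and to −0.011 by the median of ratios. Genes past 1.5-fold numbered 697 and 696 between AAV labels and 2334 and 2641 between regions. They numbered 2247, 2234, 4412 and 4596 at a minimum of 10 UMIs and 145, 203, 1182 and 1369 at 200 UMIs.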
